A study of Mus musculus with 7 samples.

Results

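Most proteins of a mitochondrion are made in the cytosol and have to be carried in, cut to size, folded and, when damaged, degraded. The genes described here encode the machines that do this: the TOM complex of the outer membrane, the TIM23 and TIM22 complexes of the inner membrane with the small TIM proteins between them, the processing peptidase, the matrix chaperones, the ATP-dependent proteases and a prohibitin. Genes were taken by symbol, from every symbol that begins with Timm or Tomm and 12 further named symbols, using probe sets to which the platform annotation gives exactly 1 symbol. This gave 33 genes of the 12393 on the array table, each read from its probe set of highest mean log2 value across the arrays. One symbol asked for by name, Phb, has only probe sets shared with another gene, as do Tomm5 and Tomm6, and these were not analysed here.

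RNA from the soleus, a slow postural muscle of the hindlimb, was hybridised to 7 one-colour Affymetrix arrays. The wild type group had 3 arrays and the group with the genotype Yin Yang 1 (YY1) knockout had 4, all from mice aged 6 months on a mixed C57Bl/6 and 129 background. The labels do not say in which cells or by what allele Yy1 was removed, nor whether each array stands for 1 animal. The p-values therefore describe the spread among these arrays, which may be technical. Values are log2 of the deposited intensity plus 1, called log2 units below, and a log2 fold change is the knockout mean minus the wild type mean. Changes were tested with limma over all 12393 genes, and a gene is said to fall or rise where its Benjamini-Hochberg adjusted p was under 0.05.

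Yy1, the targeted transcription factor, measured 9.32, 9.20 and 9.62 log2 units in wild type and 8.39, 8.24, 8.48 and 8.29 in knockout by its probe set of highest mean. The groups did not overlap (two-sided exact permutation p = 0.0286, the smallest that 3 against 4 arrays allow). The log2 fold change of Yy1 was -1.02 in this probe set and -1.70, -0.77 and -0.06 in its others. Only the last, the dimmest, overlapped between the groups. Of 10 muscle fibre markers 4 rose, Myh7, Tnni1, Tnnt1 and Tnnc1 (0.17 to 0.40). Another 4 fell, Myl3, Myh2, Ckm and Mb (-0.46 to -0.21). The summed intensity of the 10 markers ran from 366000 to 385000 in wild type and 363000 to 382000 in knockout. These markers lay near the top of the deposited range, with wild type means of 14.58 to 15.55 log2 units. Whether their sum can show a change in fibre content was not tested. Markers of some other cell types moved with the genotype. All 8 macrophage markers rose, with sums of 3380 to 4120 in wild type and 7300 to 12300 in knockout. Of 7 endothelial markers 6 fell, with sums of 3240 to 3630 and 1700 to 1790. Among fibroblast markers 4 of 6 rose (18600 to 21900 and 23800 to 35800), and of 4 fat cell markers 2 fell (14000 to 15400 and 7360 to 10200). The fat cell sums follow mostly Fabp4, at a wild type mean of 13.57 log2 units against 11.05 for Adipoq. Fabp4 and Lep fell, while Adipoq (-0.45, adjusted p = 0.267) and Cidec (-0.82, adjusted p = 0.0576) did not pass. Of 4 Schwann cell markers 1 fell, and of 3 red blood cell markers 1 fell. Of 4 T and B cell markers 1 rose, Ptprc (1.72), while Cd3e, Cd3d and Cd79a measured 0.07 to 0.10 and did not pass. The part of these cell types in the changes below was not tested, and in whole muscle fewer cells of a type and less RNA per cell cannot be told apart.

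Knockout soleus had lower transcripts for much of the import and processing machinery. Of the 33 genes, 17 fell, 3 rose and 13 did not pass the threshold. Over all genes, 16% fell and 17.0% rose. These are bright genes: 32 of the 33 lay above the median level of the array, where 23.7% of genes fell and 24.1% rose. Their median log2 fold change was -0.30, with a interquartile range of -0.43 to -0.04, against 0.01 over all genes. The values of the groups did not overlap in 19 genes with lower and 3 with higher knockout values, where the same was true of 19.1% and 20.5% of all genes. The falls were modest: the deepest, in Tomm40l, left 56.4% of the wild type signal, and the other 16 genes that fell kept 66.3% to 81.3%.

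**Figure D1:**
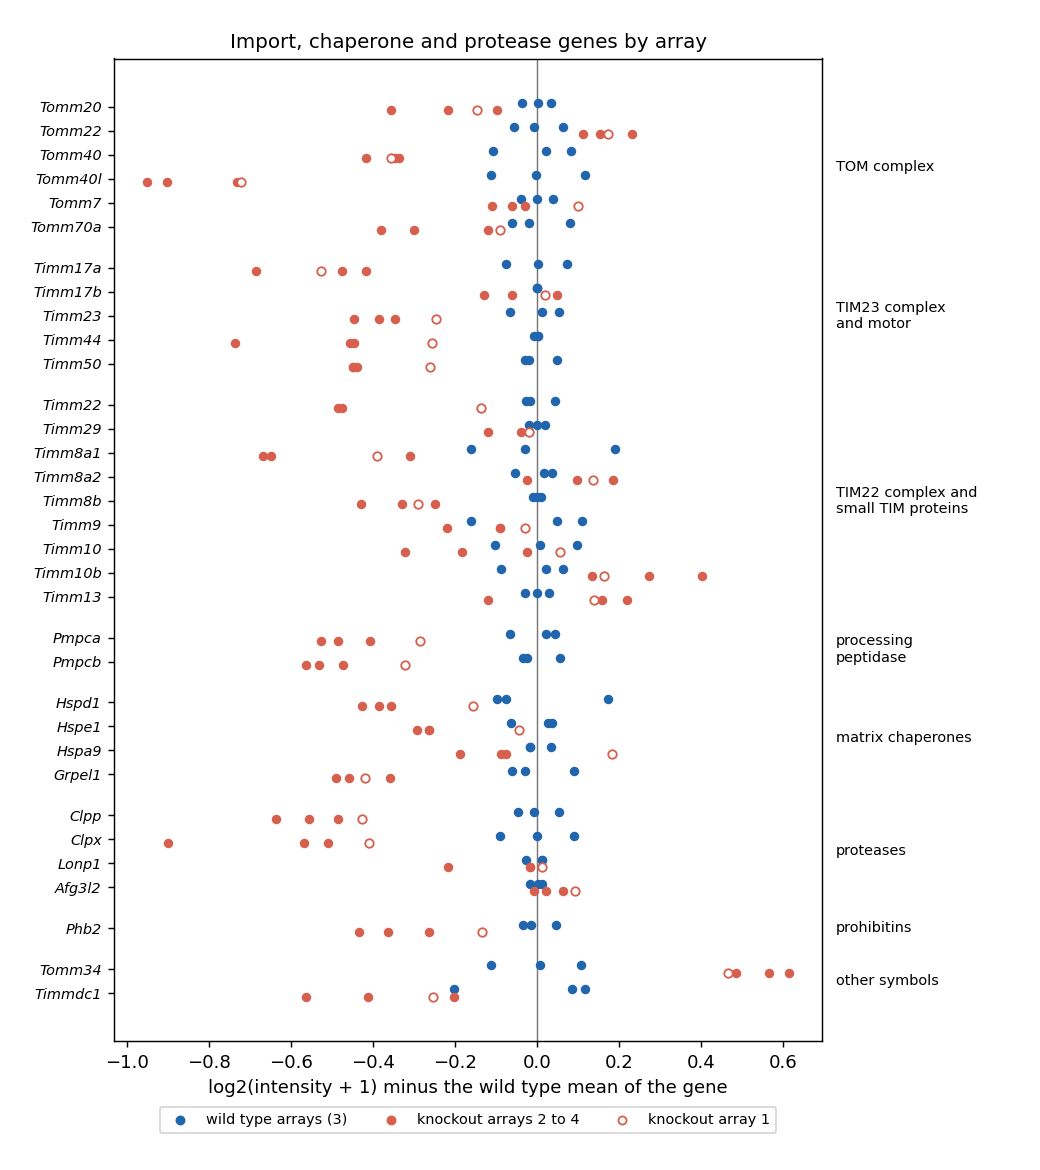
Each point is 1 array, placed by its log2(intensity + 1) minus the wild type mean of that gene, with wild type in blue and knockout in red, and knockout array 1 drawn open. Most knockout points lie left of the wild type points, and knockout array 1 is often the nearest to them. On it 19 of the 33 values are below every wild type array, against 24 to 26 on the other knockout arrays. The share of all genes below every wild type array was not counted for single knockout arrays, so these counts compare the arrays only.

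The knockout arrays did not shift equally. The median deviation of the 33 genes from their wild type means was -0.14 log2 units on knockout array 1, -0.37 on array 2, -0.25 on array 3 and -0.32 on array 4, while all genes had medians from 0 to 0.019. Without knockout array 1, 19 of the 33 genes fell and 2 rose, where 1926 and 2036 of all 12393 genes did so. The weaker shift of this array was not particular to these genes. In the tricarboxylic acid cycle list below, it was the highest knockout array in every measured gene but Suclg1.

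YY1 is known to bind a short DNA motif, and 3 of the genes, Phb2, Timm44 and Timm50, have a match near their RefSeq start. The sequences are shown because YY1 is the targeted factor. Whether YY1 binds them was not tested. Each stretch lies within the RefSeq window of 250 bases before to 50 after the start (build GRCm38.p6), is written 5′ to 3′ on the strand of the gene, and has matches to AANATGGC or its reverse complement GCCATNTT in capitals. They lie at chr6:124712095-124712185 (plus strand) for Phb2, chr8:4275856-4275920 (minus strand) for Timm44 and chr7:28311998-28312065 (minus strand) for Timm50.

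Phb2: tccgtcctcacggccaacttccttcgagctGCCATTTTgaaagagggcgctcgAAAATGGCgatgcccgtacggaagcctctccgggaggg

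Timm44: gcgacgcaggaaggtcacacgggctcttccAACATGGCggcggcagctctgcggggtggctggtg

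Timm50: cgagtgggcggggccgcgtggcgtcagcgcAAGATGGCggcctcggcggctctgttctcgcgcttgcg

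Phb2 holds the motif 2 times, in opposite orientations and upstream of the start, while in Timm44 and Timm50 it begins 16 and 12 bases into the transcript. Windows were found for 29 of the 33 genes. The 3 with a match are 10.3% of these 29, and 8.55% of the 9882 array genes with a window have one, a share close to that of the 29. The longer form AAGATGGCG, which overlaps it, was found in Timm50 alone (3.45% of the 29, against 2.82%). The core motif of the respiratory gene activator NRF1, GCATGCGC, was in the windows of Clpx, Grpel1 and Timm13 (10.3%, against 5.01%), and the motif of the ERR nuclear receptors, TCAAGGTCA, in that of Timm8b (3.45%, against 0.344%). The CHOP and ATF4 motif TGATGNAA was in none of the 29 windows and in 3.13% of the array genes. Both strands were searched throughout, and a match describes letters in a window, not binding.

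The TOM complex is the entry gate of the outer membrane. Tomm40l, a second form of its pore gene, measured 9.92, 10.03 and 10.15 log2 units in wild type and 9.31, 9.13, 9.30 and 9.08 in knockout. Every knockout array was below every wild type array, and the log2 fold change was -0.83 (SE 0.08, adjusted p = 0.000198), the largest of the 33. Tomm40, the pore itself, measured 9.23, 9.42 and 9.36 in wild type and 8.98, 9.0, 8.92 and 8.99 in knockout (log2 fold change -0.36, SE 0.06, adjusted p = 0.00222). Its knockout arrays were tightly grouped, with all 4 below the lowest wild type array. Tomm22, a receptor that also holds the complex together, went the other way, at 11.30, 11.37 and 11.25 in wild type and 11.48, 11.46, 11.54 and 11.42 in knockout. This rise of 0.17 (SE 0.06, adjusted p = 0.0466) did not overlap between the groups, but its other probe set measured 0.04 (SE 0.06), and the call was lost under 11 of 16 alternative settings (adjusted p = 0.0236 to 0.14 over all of them), those without any 1 array other than wild type array 2 among them. Tomm7, a small subunit of the complex, measured -0.02 (SE 0.06), and 0.05, -0.14 and -0.24 in its other probe sets. The receptor gene Tomm70a measured -0.22 (SE 0.08, adjusted p = 0.0768, 95% interval -0.41 to -0.03). The other probe sets of Tomm70a measured -0.09 (SE 0.10), -0.14 (SE 0.10) and -0.14 (SE 0.11), all with overlapping groups.

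Tomm20, the receptor for targeting sequences at the front of imported proteins, depended on the probe set that was read. The probe set that stands for the gene measured 13.86, 13.83 and 13.79 log2 units in wild type and 13.68, 13.47, 13.61 and 13.73 in knockout. All 4 knockout arrays were lower, but the change of -0.20 (SE 0.07) missed the threshold at adjusted p = 0.0562. The other 4 probe sets of Tomm20 measured -0.65 (SE 0.08), -0.61 (SE 0.14), -0.33 (SE 0.06) and -0.28 (SE 0.09), and all 4 passed when every probe set was tested (adjusted p = 0.000486 to 0.0447 over 20380 probe sets). None of the 5 overlapped between groups, and the brightest of them, which stands for the gene, had the smallest change.

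**Figure D2:**
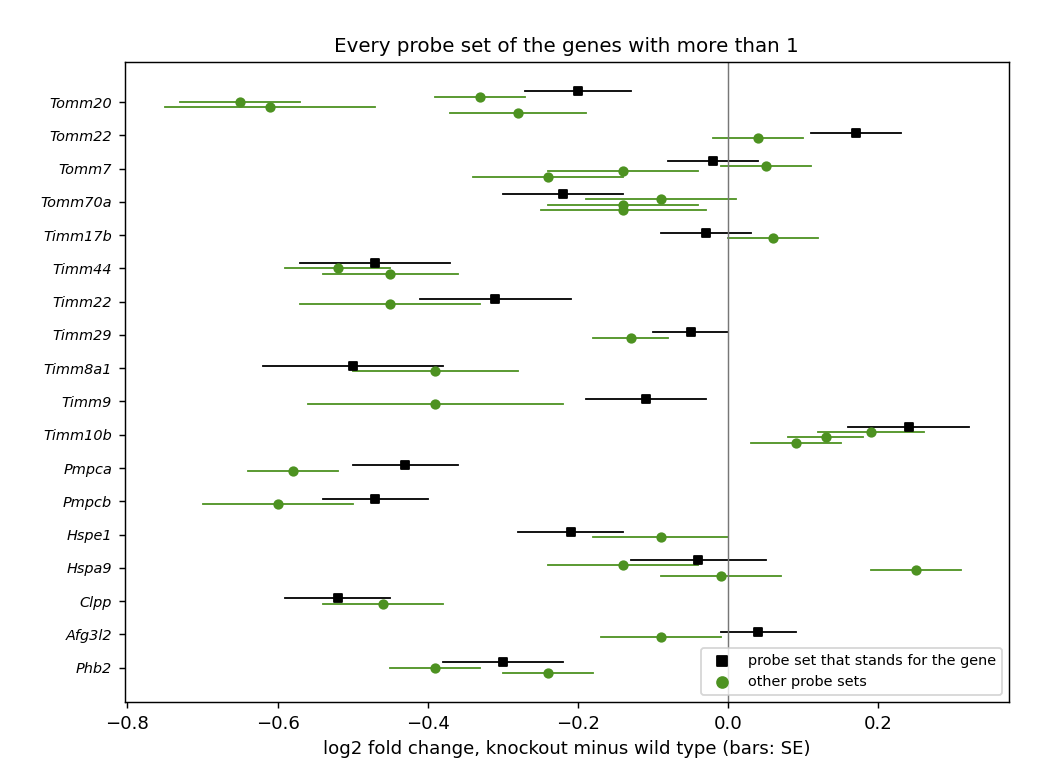
Log2 fold changes with SE are plotted for every probe set of the 18 genes that have more than 1, with black squares for the probe set that stands for the gene and green circles for the others. For Tomm20 all 5 lie left of zero, from -0.65 to -0.20, while the probe sets of Hspa9 lie on both sides, from -0.14 to 0.25.

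Over the whole group, 18 genes had more than 1 probe set, and in 8 of them another probe set had under 50% of the change or the opposite sign. Of all 64 probe sets, 29 fell and 3 rose, where 14.8% and 14.6% of 20380 probe sets did so. For Timm44, Timm22, Timm8a1, Pmpca, Pmpcb, Clpp and Phb2 every probe set of the gene measured between -0.60 and -0.24. For Timm22 the probe set that stands for the gene missed the threshold in that fit (adjusted p = 0.0527) and its dimmer one passed (-0.45, adjusted p = 0.0191), where 1 knockout array met the lowest wild type array at 6.23.

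The TIM23 complex threads proteins with a targeting sequence through the inner membrane, and 4 of its 5 genes fell. Timm17a, a channel subunit, measured 12.74, 12.89 and 12.82 log2 units in wild type and 12.29, 12.13, 12.40 and 12.34 in knockout. The groups did not overlap, and the log2 fold change was -0.52 (SE 0.08, adjusted p = 0.00117). Its paralog Timm17b measured 9.23 on each wild type array and 9.25, 9.17, 9.10 and 9.28 in knockout. Those groups overlapped (-0.03, SE 0.06, adjusted p = 0.709, 95% interval -0.17 to 0.10). The other probe set of Timm17b measured 0.06 (SE 0.06). The difference between the paralogs, the log2 ratio of Timm17a to Timm17b, went from 3.51, 3.66 and 3.58 to 3.05, 2.95, 3.31 and 3.06, a shift of -0.49. All knockout ratios were below all wild type ratios, with a two-sided exact permutation p of 0.0571 (0.114 adjusted over 4 gene pairs).

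Timm50, the receptor that takes over proteins as they leave the TOM complex, measured 10.14, 10.15 and 10.22 in wild type and 9.91, 9.72, 9.73 and 9.72 in knockout (-0.40, SE 0.07, adjusted p = 0.00201). Knockout array 1 stood above the other 3 yet below every wild type array. Timm23, the channel subunit that names the complex, changed by -0.36 (SE 0.07, adjusted p = 0.00328). Timm44, which ties the matrix Hsp70 to the channel, changed by -0.47 (SE 0.10, adjusted p = 0.00773), with knockout arrays spread from 10.81 to 11.29 and wild type arrays from 11.54 to 11.55.

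**Figure D3:**
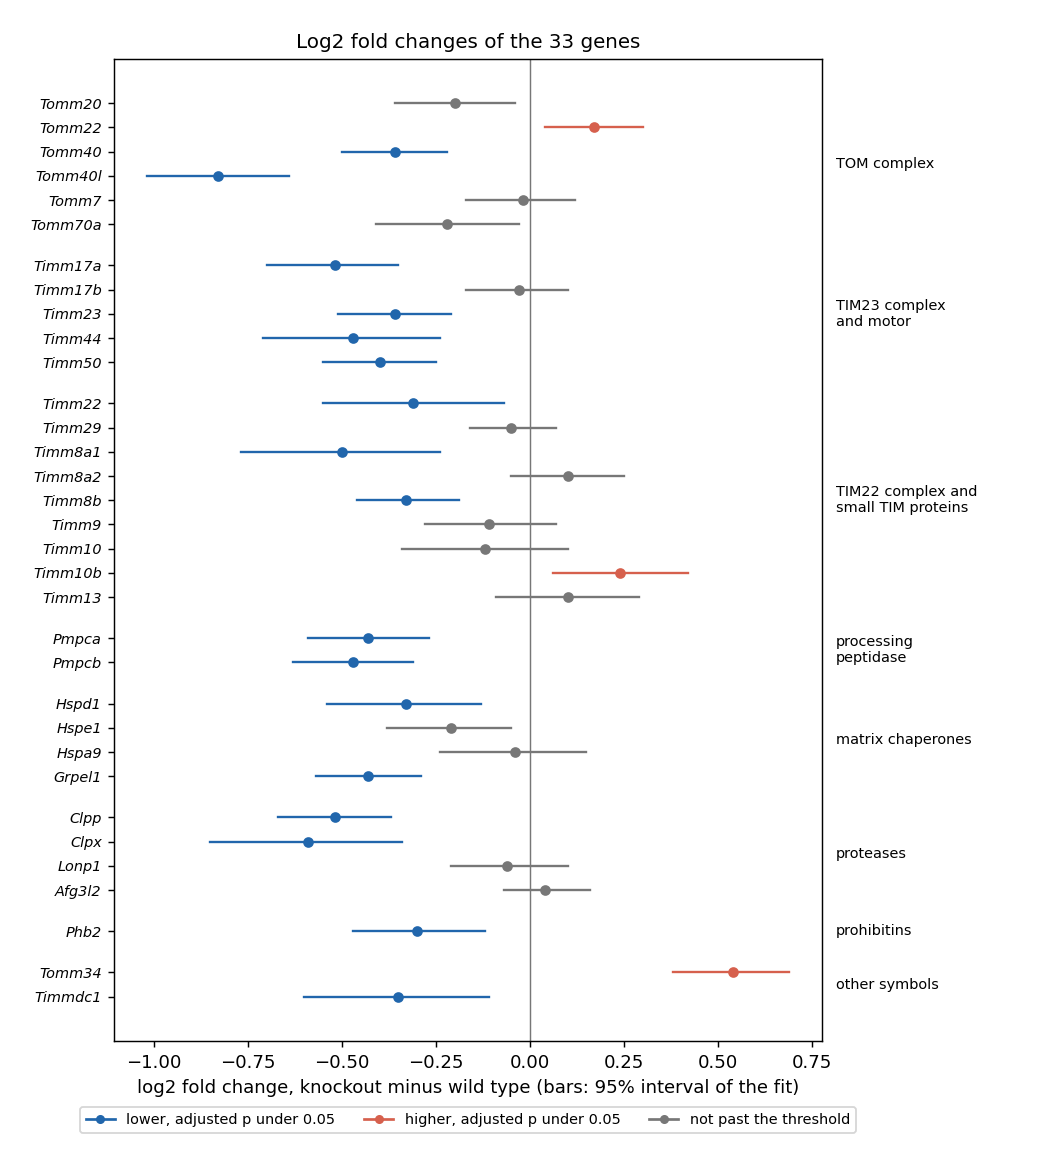
Log2 fold changes (knockout minus wild type) of the 33 genes are ordered by role, with 95% intervals from the fit, in blue where the gene fell, red where it rose and grey where it did not pass. The TIM23 genes other than Timm17b and both peptidase genes lie between -0.52 and -0.36, while the small TIM proteins straddle zero.

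The TIM22 complex inserts carrier proteins into the inner membrane, and the small TIM proteins chaperone these and other hydrophobic precursors across the space between the membranes. Of these 9 genes, 3 fell, 1 rose and 5 did not pass. The 3 that fell are 33.3% of the 9, against 16% of all genes and 23.7% of those above the median level. The 1 that rose is 11.1%, against 17.0% and 24.1%. Timm22, the channel of the complex, measured 10.04, 10.11 and 10.05 log2 units in wild type and 9.93, 9.58, 9.93 and 9.59 in knockout. The knockout arrays formed a higher and a lower pair, all below wild type, and the change of -0.31 (SE 0.10, adjusted p = 0.0484) was the one nearest to the threshold among those that fell. It lost its call under 8 of 16 alternative settings (adjusted p = 0.0139 to 0.142 over all of them), those without any 1 wild type array or without knockout array 2 or 4 among them. Timm8a1 changed by -0.50 (SE 0.12, adjusted p = 0.0106) and Timm8b by -0.33 (SE 0.06, adjusted p = 0.00317), with wild type arrays of Timm8b at 12.49 to 12.51 and knockout arrays at 12.07 to 12.25. These 2 encode partners of Timm13 in one of the small TIM chaperones, while Timm13 itself measured 0.10 (SE 0.08, adjusted p = 0.395).

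Timm9 and Timm10, which form the other small TIM chaperone, measured -0.11 (SE 0.08) and -0.12 (SE 0.10), with overlapping groups. The dimmer probe set of Timm9 measured -0.39 (SE 0.17), also with overlapping groups. Timm10b, which docks that chaperone on the TIM22 complex, measured 10.60, 10.64 and 10.49 in wild type and 10.74, 10.98, 10.85 and 10.71 in knockout. It rose by 0.24 (SE 0.08, adjusted p = 0.0455), its other 3 probe sets measured 0.19, 0.13 and 0.09, and the call was lost under 9 of 16 alternative settings (adjusted p = 0.0305 to 0.152 over all of them), among them without any 1 wild type array. Timm29, a further TIM22 subunit, measured -0.05 (SE 0.05), and -0.13 (SE 0.05, adjusted p = 0.0989 over probe sets) in its other probe set, where the groups did not overlap. Timm8a2 lay among the dimmest 1.6% of genes, at 4.10 to 4.34 log2 units on all arrays, and measured 0.10 (SE 0.07).

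The matrix processing peptidase cuts the targeting sequence from arriving proteins. Its catalytic subunit gene Pmpcb measured 12.05, 12.14 and 12.06 log2 units in wild type and 11.76, 11.55, 11.52 and 11.61 in knockout (-0.47, SE 0.07, adjusted p = 0.00118). Pmpca, the subunit that recognises the substrate, measured 11.42, 11.33 and 11.44 in wild type and 11.11, 10.91, 10.87 and 10.99 in knockout (-0.43, SE 0.07, adjusted p = 0.00206). Both genes separated the groups completely. The changes of the partners differed by 0.05 (two-sided exact permutation p = 0.657, 0.8 adjusted over 4 pairs), and their log2 ratio was -0.65 to -0.62 on the knockout arrays and -0.81 to -0.62 in wild type.

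The matrix chaperones pull in and fold the imported chain, and here they did not move alike. Grpel1, the nucleotide exchange factor of the matrix Hsp70, measured 11.88, 12.03 and 11.91 log2 units in wild type and 11.52, 11.48, 11.58 and 11.45 in knockout (-0.43, SE 0.06, adjusted p = 0.000924). Hspa9, the matrix Hsp70 itself, measured 12.17, 12.22 and 12.17 in wild type and 12.37, 12.10, 12 and 12.11 in knockout. Its groups overlapped, with knockout array 1 the highest of all 7 (-0.04, SE 0.09, adjusted p = 0.726). One dim probe set of Hspa9 rose by 0.25 (SE 0.06, adjusted p = 0.0193 over probe sets), at 6.81 log2 units in wild type, while the other 2 measured -0.14 (SE 0.10) and -0.01 (SE 0.08).

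Hspd1 and Hspe1 encode the barrel and the lid of the matrix chaperonin and are known to be read in opposite directions from a shared promoter. RefSeq lists starts of Hspd1 at 55088243 and 55087932 on the minus strand and of Hspe1 at 55088148 on the plus strand of chromosome 1. The stretch shown, chr1:55088004-55088131 (build GRCm38.p6, plus strand), lies between the Hspe1 start and the Hspd1 start at 55087932, and downstream of the other Hspd1 start. It is shown because it lies in the RefSeq windows of both genes. Capitals mark a heat shock motif, GAANNTTC, which is its own reverse complement.

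Hspd1 and Hspe1: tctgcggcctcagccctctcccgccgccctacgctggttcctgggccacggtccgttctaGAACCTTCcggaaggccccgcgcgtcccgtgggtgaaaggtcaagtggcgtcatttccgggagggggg

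The match begins 84 bases before the Hspe1 start and 139 bases before the Hspd1 start at 55087932. The motif was in the windows of 3 of the 29 genes (10.3%, the other being Timm9) and of 7.56% of the array genes. Hspd1 measured 12.23, 12.48 and 12.21 in wild type and 12.15, 11.92, 11.95 and 11.88 in knockout and changed by -0.33 (SE 0.09, adjusted p = 0.0221). It lost its call without wild type array 2 or knockout array 2, 3 or 4, up to adjusted p = 0.079. Hspe1 measured 12.09, 12.08 and 11.99 in wild type and 12.01, 11.79, 11.79 and 11.76 in knockout. Knockout array 1 lay inside the wild type range, and the change of -0.21 (SE 0.07) fell just outside the threshold at adjusted p = 0.0549. Without knockout array 1 it passed (adjusted p = 0.00903). It also passed with all 7 arrays under some alternative settings, among them array weights (adjusted p = 0.0353) and a pseudocount of 16 (adjusted p = 0.0472). The other probe set of Hspe1 measured -0.09 (SE 0.09) with overlapping groups, and with its probe sets averaged Hspe1 changed by -0.15 (adjusted p = 0.178). The log2 ratio of Hspd1 to Hspe1 was 0.14, 0.39 and 0.22 in wild type and 0.12 to 0.15 in knockout (two-sided exact permutation p = 0.0571, 0.114 adjusted over 4 pairs).

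Among the proteases, both parts of ClpXP fell and the other 2 genes did not pass. Clpp, the proteolytic chamber, measured 10.82, 10.92 and 10.86 log2 units in wild type and 10.44, 10.23, 10.38 and 10.31 in knockout (-0.52, SE 0.07, adjusted p = 0.000553). Clpx, the unfoldase that feeds it, measured 11.85, 11.76 and 11.67 in wild type and 11.35, 11.19, 10.86 and 11.25 in knockout (-0.59, SE 0.11, adjusted p = 0.00417). In both genes every knockout array was below every wild type array, and their changes differed by 0.07 (two-sided exact permutation p = 0.8). Lonp1, the protease of oxidised matrix proteins, measured -0.06 (SE 0.07, adjusted p = 0.564, 95% interval -0.21 to 0.10). Afg3l2, a subunit of the inner membrane m-AAA protease, measured 0.04 (SE 0.05, adjusted p = 0.569, 95% interval -0.07 to 0.16), and -0.09 (SE 0.08) in its other probe set. Phb2, a prohibitin that forms a ring scaffold around that protease, changed by -0.30 (SE 0.08, adjusted p = 0.0179), and by -0.39 and -0.24 in its other probe sets. The call of Phb2 was lost without wild type array 1 or 2 (up to adjusted p = 0.0661).

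Of the genes chosen by symbol, 2 do not belong to the import machines. Tomm34 encodes a cytosolic cochaperone of Hsp70 and Hsp90 that was first described at the outer membrane. It measured 9.52, 9.42 and 9.30 log2 units in wild type and 9.88, 9.98, 10.03 and 9.90 in knockout, and rose by 0.54 (SE 0.07, adjusted p = 0.00059). Every knockout array exceeded every wild type array, and Tomm34 was the one gene of the 3 that rose whose call held under all 16 alternative settings. Timmdc1, a factor in the assembly of respiratory complex I, changed by -0.35 (SE 0.11, adjusted p = 0.0361) and lost its call under 5 settings (up to adjusted p = 0.132), those without wild type array 2 or 3 or knockout array 2 or 4 among them.

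Among cytosolic chaperones, some of which hold precursors unfolded before import, the changes ran upwards. Of 8 measured, 6 rose and none fell, with a median of 0.45. Hsp90aa1, the inducible Hsp90, measured 10.60, 10.71 and 10.51 in wild type and 11.39, 11.31, 11.14 and 11.33 in knockout (0.69, SE 0.08, adjusted p = 0.000314). Stip1, which links Hsp70 and Hsp90, rose by 0.50 (SE 0.06, adjusted p = 0.000348). The inducible Hsp70 genes, near-identical copies that probe sets may not separate, rose by 0.78 (Hspa1a, SE 0.10) and 0.98 (Hspa1b, SE 0.14). Hspa8, the constitutive Hsp70, rose by 0.23 (SE 0.05), while Dnajb1, an Hsp40, measured -0.09 (SE 0.07).

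Genes known to rise when mitochondria are stressed were mixed. Of 14 measured, 5 rose and 1 fell, with a median of 0.18. Mthfd2, a mitochondrial folate enzyme, measured 7.79, 7.91 and 7.85 in wild type and 9.46, 9.39, 9.41 and 8.99 in knockout (1.47, SE 0.11, adjusted p = 7.02e-05). Asns, of asparagine synthesis, rose by 1.52 (SE 0.27, adjusted p = 0.00315), the pseudokinase gene Trib3 by 0.70 (SE 0.12) and the serine synthesis gene Psat1 by 0.56 (SE 0.10), and Ddit3, which encodes CHOP, by 0.49 (SE 0.12). Chac1, of glutathione breakdown, changed by -1.36 (SE 0.17, adjusted p = 0.000524). The regulators Atf4 (-0.09, SE 0.06) and Atf5 (0.26, SE 0.11, adjusted p = 0.108) did not pass.

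**Figure D4:**
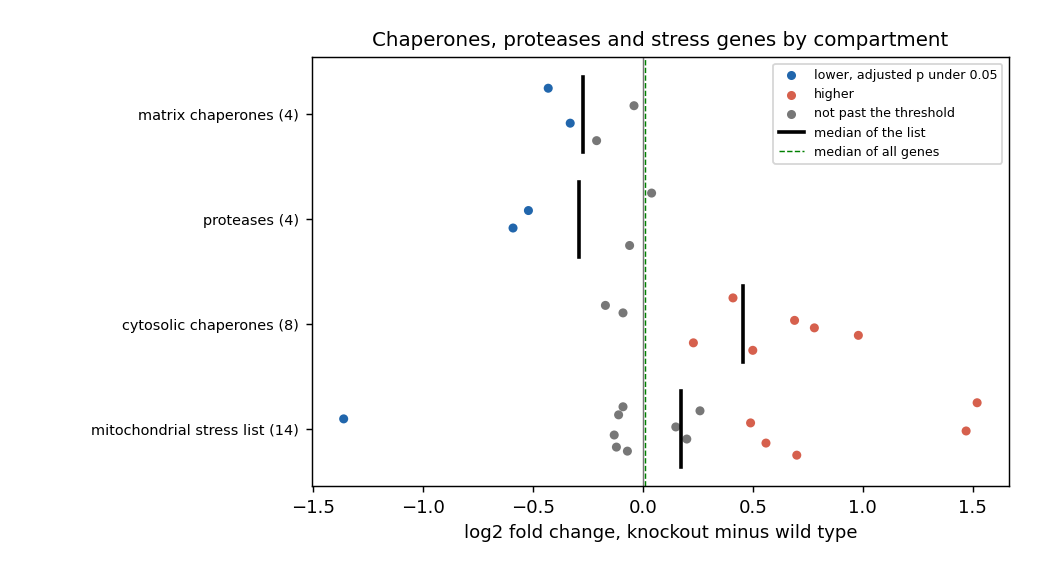
Points are genes, placed by log2 fold change (knockout minus wild type) and coloured by call, with the median of each list in black and of all genes as a dashed green line. No matrix chaperone or protease lies above 0.04, while 6 of 8 cytosolic chaperones lie at 0.23 or more.

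The wider machinery of import and quality control, 33 genes listed from general knowledge, held more genes that fell than rose. Of 27 measured, 12 fell, 2 rose and 13 did not pass, with a median of -0.18. Dnajc15, a cochaperone at the TIM23 channel, measured 11.75, 11.90 and 11.80 in wild type and 10.98, 10.54, 10.74 and 10.61 in knockout, and its log2 fold change of -1.10 (SE 0.10, adjusted p = 0.000153) was the largest of this list. Parl, a rhomboid protease of the inner membrane, changed by -0.69 (SE 0.07, adjusted p = 0.000267), Samm50, which inserts barrel proteins into the outer membrane, by -0.65 (SE 0.09, adjusted p = 0.000646), and Oxa1l, which inserts inner membrane proteins from the matrix side, by -0.58 (SE 0.07, adjusted p = 0.000349). Mtx1, a partner of Samm50 on the outer membrane, measured 10.49, 10.51 and 10.39 in wild type and 11.06, 11.18, 11.29 and 10.99 in knockout and rose by 0.67 (SE 0.08, adjusted p = 0.000452). Its partner Mtx2 changed by -0.56 (SE 0.11, adjusted p = 0.00416). Ghitm, an inner membrane protein, rose by 0.25 (SE 0.06, adjusted p = 0.0161). Grpel2, the paralog of Grpel1, changed by -0.65 (SE 0.10, adjusted p = 0.00119). Mtx2 and Grpel2 were picked as partners of genes already described, after their values were seen.

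Other mitochondrial genes fell beside these. All 15 measured genes of the tricarboxylic acid cycle fell, with a median of -0.56 and a range of -2.22 to -0.36. Of 39 complex I genes 25 fell and none rose (median -0.26), and of 74 genes of the mitochondrial ribosome 43 fell and 2 rose (median -0.27). The import, chaperone and protease genes had 17 of 33 lower and a median of -0.30, and differences between these lists were not tested.

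**Figure D5:**
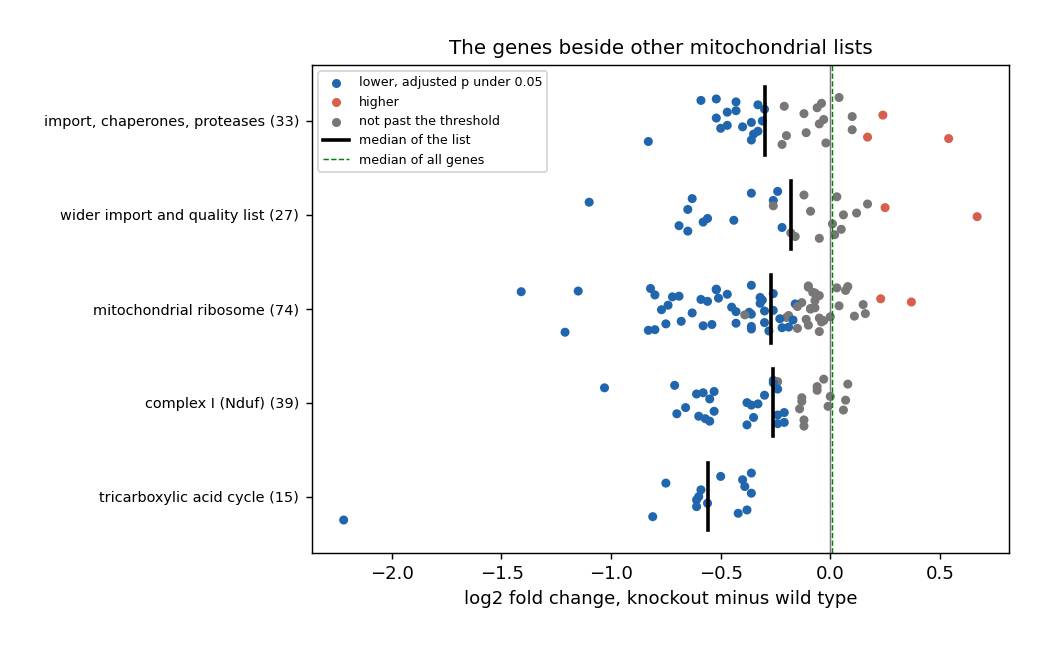
Points are genes, placed by log2 fold change (knockout minus wild type) and coloured by call, for the 33 genes and 4 other mitochondrial lists, with the median of each list in black. The tricarboxylic acid cycle genes lie wholly below zero with a median of -0.56, and the medians of the other 4 lists run from -0.30 to -0.18.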

How the data were processed

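The authors deposited 1 intensity per probe set and array for 22690 probe sets, and RMA is named per the submitters' processing notes. No label names the software version or probe definition. On a linear scale, the deposited intensity ran from 11.34 to 50754, with array medians of 139.1 to 143.2 over all 22690 probe sets and 146.8 to 151.8 over the 20380 with 1 symbol, and was taken to log2(value + 1). Precision is limited by how many arrays there are. Scan and slide batches were not analysed here.

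Of the probe sets, 64 controls were left out, and 20380 had 1 symbol, 691 several and 1555 none. The probe set with the highest mean stood for each of 12393 genes. Entrez identifiers matched 12369 of these to a RefSeq gene table, whose symbols were used except for the 33 genes, which keep the platform's symbol (Tomm70a).

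Knockout and wild type were compared with limma 3.58.1 (lmFit, eBayes, two-sided) in R 4.3.3, adjusted over all genes, threshold 0.05, with no filter on dim genes. Exact permutation tests used the 35 divisions of 7 arrays. Tested on simulated data of 12393 genes with 200 changed, in 10 draws, the script recovered 95.7% of log2 fold changes of 1 and 70.8% of those of 0.5, with 4.57% false calls. In these data 1979 genes fell and 2103 rose, far more than the 200 simulated, and changes under 0.5 were not simulated. The simulated rates may therefore not hold here. Replicate numbers did not pair the arrays. Any pair of arrays shared at most 1622 values equal in every deposited digit among 20380 probe sets. Promoter windows are RefSeq's, GRCm38.p6, matched by Entrez identifier.

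The genes and lists were chosen with earlier results of these data known. Named by rule were all 33 genes, with values by array for the 8 lower and all higher genes of smallest p. Values by array also covered their named partners and the 2 genes on each side of the threshold. The rule further named up to 4 genes per direction of the wider list and the stress list. The values of Hspa9 by array, Ddit3, Atf4, Atf5 and the named cytosolic chaperones were picked outside this rule, as were Mtx2 and Grpel2. The test of gene pairs was added after values were seen. Alternatives covered normalization, pseudocount, filter, probe sets, replicate block, variance prior, array weights and each array left out.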

Additional observations from a re-analysis of the deposited data

Results flagged for a closer look

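In 3 of the 33 genes, 1 knockout array stood far from the other 3 by Dixon's test, which chance flags in about 1 group of 20; wild type, with 3 arrays, was not tested. Hspe1 measured 12.01 on knockout array 1, with the next at 11.79. Timm50 measured 9.91 on knockout array 1, with the next at 9.73. Lonp1 measured 10.20 on knockout array 3, with the next at 10.40. The cause was not tested.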

How the results depend on the processing

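Of the 17 genes that fell, 12 kept their call under all 16 alternatives and Hspd1, Phb2, Timm22, Timm8a1 and Timmdc1 lost it under at least 1. No called gene changed sign. Timm8a2 drops out where dim genes are filtered. The count of genes that fell ran from 13 to 19, and the median log2 fold change of all 33 genes from -0.34 to -0.25. The count that rose, 3, was 1 with probe sets averaged, with array weights or with the replicate number as a block, and 1 to 2 with an array left out: 1 without wild type array 1 or 3 or knockout array 2 or 3. In the wider list the 2 that rose became 1 with the block, and 1 to 2 with an array left out (1 without wild type array 1 or 2). The 12 that fell there became 8 with the block and 8 to 12 with an array left out. Of the 13 genes outside the threshold, Tomm20, Hspe1 and Tomm70a passed under at least 1 alternative, and the other 10 under none. Tomm20 passed at -0.41 with its probe sets averaged.

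With the replicate number as a block, 13 of the 33 genes fell, where 1599 of all 12393 genes did so. The block was the one setting that ended the call of Timm8a1 (-0.45, adjusted p = 0.0604), and it also ended that of Hspd1 (-0.30, adjusted p = 0.0893). Deviations from the group means of arrays with the same number correlated at 0.029, -0.126 and 0.017, so the numbers do not pair the arrays. The number of arrays, 3 and 4, limits what could be called.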
